A study of Homo sapiens with 15 samples.

Results

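The response of SW480 cells labelled PINT shRNA1 to bacterial lipopolysaccharide (LPS) was measured by RNA sequencing in 6 libraries: 3 of PINT shRNA1+LPS against 3 of PINT shRNA1. They were taken by their RNA numbers from the 12 libraries used of the series. Of 57905 genes listed, 16342 reached 0.5 FPKM (sequenced fragments scaled to transcript length and library size) in at least 3 of the 6 libraries and were tested. SW480 is an established human colorectal cancer cell line, grown in DMEM with fetal bovine serum and given in the labels as intestinal epithelial. In both groups a lentivirus delivered a short hairpin RNA against PINT, a long non-coding RNA, described as a stable knockdown, and differed in exposure to PBS or to LPS at 1 µg/ml for 4 h. A separate pair of groups, control (wild-type cells in PBS) and LPS (wild-type cells in LPS), with 3 libraries each, gave the response of cells without a hairpin. No non-targeting hairpin appears among the labels, nor do they say whether a group is 1 clone or whether replicates are separate cultures, so p-values here reflect library-to-library spread, which may be technical. Each of the 3 PINT shRNA1 RNA numbers has 2 samples in the labels but 1 column of values, and whether that column holds 1 sample or both is not recorded. The series title concerns PINT, EZH2 and the p65 subunit of NF-kB in inflammatory transcription.

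LPS is a component of the outer membrane of Gram-negative bacteria. It is sensed by TLR4 with its co-receptors, and adaptors such as MYD88 and kinases of the IRAK family pass the signal to the IkB kinases. These release NF-kB, a family of dimers built from RELA (p65), RELB, REL, NFKB1 and NFKB2, which enters the nucleus and binds short kappaB sequences in DNA. Among its known targets are chemokines, adhesion molecules, survival genes and the inhibitors that shut the pathway down again. In intestinal epithelium this programme recruits leukocytes, and epithelial cells are known for low sensitivity to LPS.

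In cells labelled with the hairpin, 26 of the 16342 genes tested (0.159%) were called after LPS at an adjusted p under 0.05 (limma, Benjamini-Hochberg over all genes), 19 higher (0.116%) and 7 lower (0.0428%). The higher genes included 10 members of the 10 lists of NF-kB pathway and target genes: SDC4, SGPP2, TNFAIP2, CCL2, ICAM1, PLAU, BIRC3, TNFAIP3, NFKB2 and TNIP1. Their log2 fold changes, here and below on the log2(FPKM + 0.5) scale that understates changes of low genes, were 0.45 to 1.02. The genes with the largest changes in either direction, such as TMEM189, IGF2 and EMP2, were outside these lists. The NF-kB genes changed less than in LPS against control, and for 9 members of these lists, called here or not, the difference of the 2 responses was itself called. The 26 calls became 12 without PINT shRNA1 replicate 1, 14 without PINT shRNA1+LPS replicate 1 and 7 without a filter on low values. Without PINT shRNA1+LPS replicate 2 they were 6 higher and 12 lower. With the replicate number fitted as a block 0 genes were called, though the labels do not state that these numbers pair libraries. At an unadjusted p under 0.05 there were 1915 genes (11.7%), 637 higher (3.90%) and 1278 lower (7.82%).

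Stretches upstream of some of these genes hold a letter pattern that NF-kB dimers are known to bind. The 250 bases before the start of each gene, in RefSeq promoter windows of GRCh38.p14, were searched on both strands for GGANNTTCC, which appears as GGAANNTCC where it lies on the opposite strand; a place that matches both ways was counted once. Of the 19 genes called higher 17 matched a window, and 4 of those (23.5%) held the pattern, against 1350 of all 35116 windows (3.84%) and 434 of the 10917 tested genes that matched (3.98%). None of the 3 matched genes called lower held it. The pattern lay in 24 of 105 matched members of the NF-kB lists (22.9%), called or not. The 4 called genes that held it are given first, then NFKBIA and CXCL8 (listed as IL8), which held it and were not called. Capitals mark the pattern, with up to 20 bases on either side, each read 5′ to 3′ on the gene's own strand.
SGPP2 (chr2:222423830-222423878, plus strand): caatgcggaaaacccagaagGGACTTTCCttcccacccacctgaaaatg
ICAM1 (chr19:10270914-10270962, plus strand): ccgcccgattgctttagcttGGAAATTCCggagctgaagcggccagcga
MIR146A host transcript (chr5:160468112-160468160, plus strand): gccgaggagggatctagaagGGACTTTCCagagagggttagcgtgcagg
TNFAIP3 (chr6:137867172-137867220, plus strand): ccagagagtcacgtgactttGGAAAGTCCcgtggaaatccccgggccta
NFKBIA, farther match (chr14:35404963-35404999, minus strand): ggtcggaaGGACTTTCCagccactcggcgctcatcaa
NFKBIA, nearer match (chr14:35404802-35404850, minus strand): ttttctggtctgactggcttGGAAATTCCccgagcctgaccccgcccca
CXCL8 (chr4:73740458-73740506, plus strand): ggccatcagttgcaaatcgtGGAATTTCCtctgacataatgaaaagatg
The first base of the pattern was at position -138 from the start in SGPP2, -186 in ICAM1, -119 in the MIR146A host, -67 in TNFAIP3 and -91 in CXCL8, and at -242 and -81 in NFKBIA. SGPP2 and the MIR146A host held the same 9 letters, as did ICAM1 and the nearer NFKBIA match. In TNFAIP3 the pattern was on the opposite strand. A match describes letters only, and other letter patterns were not searched. The windows of SDC4, TNFAIP2, BIRC3, PLAU, NFKB2 and TNIP1 had no match to this pattern within these 250 bases. CCL2 and RP11-542C16.2, both called higher, matched no window.

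As to the libraries, FPKM sums were 409248 to 419955. Depth relative to PINT shRNA1 replicate 1 was estimated from the commonest ratio of low values. Few ratios held it, 60 of 6129 in PINT shRNA1 replicate 2 and 24 of 6524 in PINT shRNA1+LPS replicate 3. The estimate ranged from 0.872 to 1 without LPS and from 1.24 to 1.44 with it. Estimated depth thus moved with LPS, and its part in the results was not tested. Absolute depth is unknown. The median SD of a gene on the log2 scale was 0.104 in PINT shRNA1 and 0.0839 in PINT shRNA1+LPS. The first principal component of the 6 libraries (25.8% of the variance) separated the groups. Of 8 epithelial markers 7 were above 0.5 FPKM in both groups (CDX1 was listed at 0), with summed FPKM of 1441 to 1536 without LPS and 1547 to 1606 with it. The 8 leukocyte markers summed to 4.09 to 5.92 and 4.23 to 4.69 FPKM, and the 9 fibroblast and endothelial markers to 1.12 to 1.39 and 0.997 to 1.54.

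LINC-PINT (ENSG00000231721), the gene the hairpin is directed at, was at 4.55, 5.26 and 5.34 FPKM in PINT shRNA1 and at 3.54, 4.00 and 4.08 in PINT shRNA1+LPS. All 3 LPS libraries lay below all 3 without LPS, which held for 13.4% of all genes tested. The change of -0.34 ± 0.088 (log2, SE) was not called in limma, with an adjusted p of 0.317. Permuting 3 against 3 libraries exactly, on both sides, gave p = 0.1, the smallest possible. Control libraries had 2.88, 2.56 and 2.51 FPKM, below every library labelled with the hairpin, so the targeted gene goes against the label. The names "PINT shRNA1" and "with the hairpin" therefore stand for labelled libraries only, and the part of PINT in the results was not tested. EZH2, the Polycomb methyltransferase, had 29.1, 30 and 29 FPKM without and 30.8, 29.5 and 29.4 with LPS (0.02 ± 0.040, limma adjusted p = 0.829). RELA had 21.4, 23.6 and 21.6 FPKM without and 13.3, 25.0 and 22.5 with LPS, where replicate 1 stood apart (-0.18 ± 0.218, limma adjusted p = 0.766). MKLN1, next to LINC-PINT, had 12, 12.7 and 11 FPKM without and 13.5, 12.1 and 11.4 with LPS (0.05 ± 0.0837).

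Receptor and adaptor genes of the LPS pathway were not called. Of 15 tested members 2 were higher and 3 lower at an unadjusted p under 0.05, beside 3.9% and 7.82% of all genes tested. The list median was -0.063, beside -0.037 over all genes tested. TLR4, the receptor, was at 2.51, 2.07 and 2.42 FPKM in PINT shRNA1 and 2.30, 2.17 and 2.08 in PINT shRNA1+LPS (-0.08 ± 0.0896, limma adjusted p = 0.754). Its co-receptor CD14 was under 1 FPKM in all 6 libraries. MYD88, the adaptor, was at 6.46, 3.20 and 7.71 FPKM without and 3.43, 2.92 and 3.00 with LPS (-0.72 ± 0.283, limma adjusted p = 0.409), with replicate 2 of PINT shRNA1 inside the range of the LPS group. The kinase IRAK2 had the largest difference upward of the list, from 1.19, 1.23 and 1.20 to 1.98, 1.9 and 2.00 FPKM (0.52 ± 0.0739, limma adjusted p = 0.0974). Those groups did not overlap, which held for 1006 genes upward (6.16%) and 2183 downward (13.4%) among all tested.

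Among the 12 NF-kB subunit and kinase genes 1 was called, beside 0.116% of all genes tested called higher. NFKB2, which encodes the p100 precursor of p52, was at 16.9, 17.5 and 15.7 FPKM without LPS and at 24.1, 23.2 and 23.4 with it. It rose by 0.49 ± 0.0527 (limma adjusted p = 0.0431), and the groups did not overlap. NFKB1, encoding p105 and p50, went from 23.1, 23.1 and 22.1 FPKM to 32.7, 28.4 and 29.5 without passing the threshold (0.40 ± 0.0609, limma adjusted p = 0.117). RELB, the usual partner of p52, was at 10.2, 6.84 and 9.45 FPKM without and 12.3, 14.3 and 11.1 with LPS (0.50 ± 0.159, limma adjusted p = 0.357). No member was lower at an unadjusted p under 0.05, and 4 were higher, beside 7.82% and 3.9% of all genes tested.

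Genes that restrain NF-kB gave 2 calls in 14, beside 0.116% of all genes tested called higher. TNFAIP3, the ubiquitin-editing enzyme A20, was at 6.62, 7.77 and 6.87 FPKM in PINT shRNA1 and 11.4, 11 and 11.1 in PINT shRNA1+LPS, and rose by 0.62 ± 0.0696 (limma adjusted p = 0.0443). TNIP1, which binds A20, was at 57.3, 57.2 and 62.0 FPKM without and 82.5, 81.7 and 76.9 with LPS, and rose by 0.45 ± 0.0492 (limma adjusted p = 0.0439). In both genes every LPS library was above every library without LPS. NFKBIA, the inhibitor IkB-alpha and a classical early target, was at 21.3, 20.8 and 20.1 FPKM without and 23.5, 17.0 and 27.3 with LPS, so the groups overlapped (0.10 ± 0.159, limma adjusted p = 0.832). BCL3, a nuclear IkB protein, went from 1.25, 1.64 and 1.34 to 2.99, 2.18 and 2.65 FPKM (0.70 ± 0.129, limma adjusted p = 0.195). The list median was 0.16. Outside the lists, the entry MIR146A (ENSG00000253522) was called as well, at 11.5, 9.90 and 10.7 FPKM without and 17.3, 16.4 and 17.4 with LPS (0.65 ± 0.0644, limma adjusted p = 0.0364). That entry is the long host transcript and not the mature microRNA, which was not measured. The host gives rise to hsa-miR-146a-5p, known to target adaptors of this pathway, shown with its seed (bases 2 to 8) in capitals.
hsa-miR-146a-5p (GRCh38.p14, chr5:160485372-160485393, plus strand): uGAGAACUgaauuccauggguu

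CCL2 (ENSG00000108691), a chemokine for monocytes, was the only chemokine of 14 tested that was called, beside 0.116% of all genes tested called higher. It was at 19.3, 17.5 and 18.0 FPKM in PINT shRNA1 and 33.5, 31.6 and 31.0 in PINT shRNA1+LPS, and rose by 0.79 ± 0.0548 (limma adjusted p = 0.00716). CCL7, a related monocyte chemokine, was at 3.28, 2.87 and 2.50 FPKM without and 4.58, 4.46 and 4.75 with LPS (0.60 ± 0.097, limma adjusted p = 0.136). CCL20, which attracts CCR6-bearing lymphocytes and dendritic cells, had 7.82, 8.73 and 7.99 FPKM without and 13.8, 11.5 and 11.4 with LPS (0.55 ± 0.0863, limma adjusted p = 0.125). The groups did not overlap in either, which held upward for 6.16% of all genes tested, and the adjusted p missed the threshold in both. The neutrophil chemokine CXCL1 went from 17.3, 16.8 and 16.0 to 22.1, 20.5 and 21.2 FPKM (0.34 ± 0.0512, limma adjusted p = 0.108). CXCL8 overlapped between groups, at 12, 10.4 and 13.6 FPKM without and 15.2, 12.5 and 12.9 with LPS (0.17 ± 0.114, limma adjusted p = 0.591). CCL28, a mucosal chemokine, had the lowest change of the CC chemokines, from 2.38, 2.32 and 2.63 to 2.12, 1.78 and 1.5 FPKM (-0.36 ± 0.116, limma adjusted p = 0.357). The median change was 0.26 over 6 CC chemokines and 0.16 over 8 CXC and CX3C chemokines.

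None of the 9 interleukins and related cytokines and none of the 16 ligands and receptors of the TNF superfamily was called. In each list 5 were higher at an unadjusted p under 0.05, beside 3.9% of all genes tested. LTB, lymphotoxin beta, came nearest to a call, from 20.5, 18.9 and 22.0 to 31.8, 29.6 and 29.6 FPKM (0.56 ± 0.0665, limma adjusted p = 0.0506). IL23A, a subunit of interleukin 23, went from 8.14, 8.55 and 9.65 to 12, 12.7 and 12.6 FPKM (0.48 ± 0.0724, limma adjusted p = 0.108). CSF2, the growth factor GM-CSF, went from 6.38, 5.38 and 7.02 to 8.84, 8.90 and 9.21 FPKM (0.50 ± 0.0951, limma adjusted p = 0.213). In these 3 genes the groups did not overlap, which held upward for 6.16% of all genes tested. TNF itself was low, at 1.83, 1.68 and 1.77 FPKM without and 2.36, 2.50 and 1.87 with LPS. Medians were 0.22 for the cytokines and 0.086 for the TNF superfamily.

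BIRC3 (cIAP2), an inhibitor of apoptosis and ubiquitin ligase, was the one called gene among 17 IAP, TRAF and survival genes. Of all genes tested 0.116% were called higher. BIRC3 had the highest change of the NF-kB lists. It was at 14.2, 18.7 and 13.8 FPKM in PINT shRNA1 and 33.3, 30.5 and 31.5 in PINT shRNA1+LPS, and rose by 1.02 ± 0.116 (limma adjusted p = 0.0452). TRAF1, a signalling adaptor of TNF receptors, went from 1.92, 1.86 and 1.82 to 2.61, 2.66 and 3.14 FPKM (0.48 ± 0.0879, limma adjusted p = 0.189). The list median was 0.018, nearer to that of all genes than in the effector list.

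The list of other NF-kB effectors held 5 of the 10 calls, among 28 tested, with a median of 0.19. Of all genes tested 0.116% were called higher, and their median was -0.037. SDC4 (ENSG00000124145), the heparan sulfate proteoglycan syndecan 4, was the most abundant called gene, at 174, 168 and 172 FPKM without and 296, 280 and 282 with LPS. It rose by 0.74 ± 0.0362 (limma adjusted p = 0.00356). SGPP2 (ENSG00000163082), a phosphatase of sphingosine 1-phosphate, was at 19.8, 18.9 and 19.4 FPKM without and 33.8, 32.0 and 33.6 with LPS, a rise of 0.76 ± 0.0432 (limma adjusted p = 0.00356). Both genes kept the replicates of a group close together. TNFAIP2, a TNF-induced protein linked to membrane protrusions, was at 36.6, 35.7 and 34.4 FPKM without and 61.0, 59.4 and 56.9 with LPS and rose by 0.73 ± 0.0441 (limma adjusted p = 0.00396). ICAM1 (ENSG00000090339), the adhesion molecule that leukocyte integrins bind, was at 27.9, 25.6 and 25.8 FPKM without and 46.3, 43.1 and 41.2 with LPS. It rose by 0.71 ± 0.0592 (limma adjusted p = 0.0180). PLAU, the urokinase plasminogen activator, was at 6.01, 5.90 and 5.73 FPKM without and 11.2, 9.95 and 9.11 with LPS, a rise of 0.73 ± 0.0821 (limma adjusted p = 0.0452). IRF1, a transcription factor shared with the interferon response, had spread values of 14.2, 8.29 and 9.47 FPKM without and 17.8, 15.8 and 16.6 with LPS (0.66 ± 0.183, limma adjusted p = 0.328). PLAU was also the 1 called member of 22 tested genes of epithelial-mesenchymal transition and invasion.

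**Figure D1:**
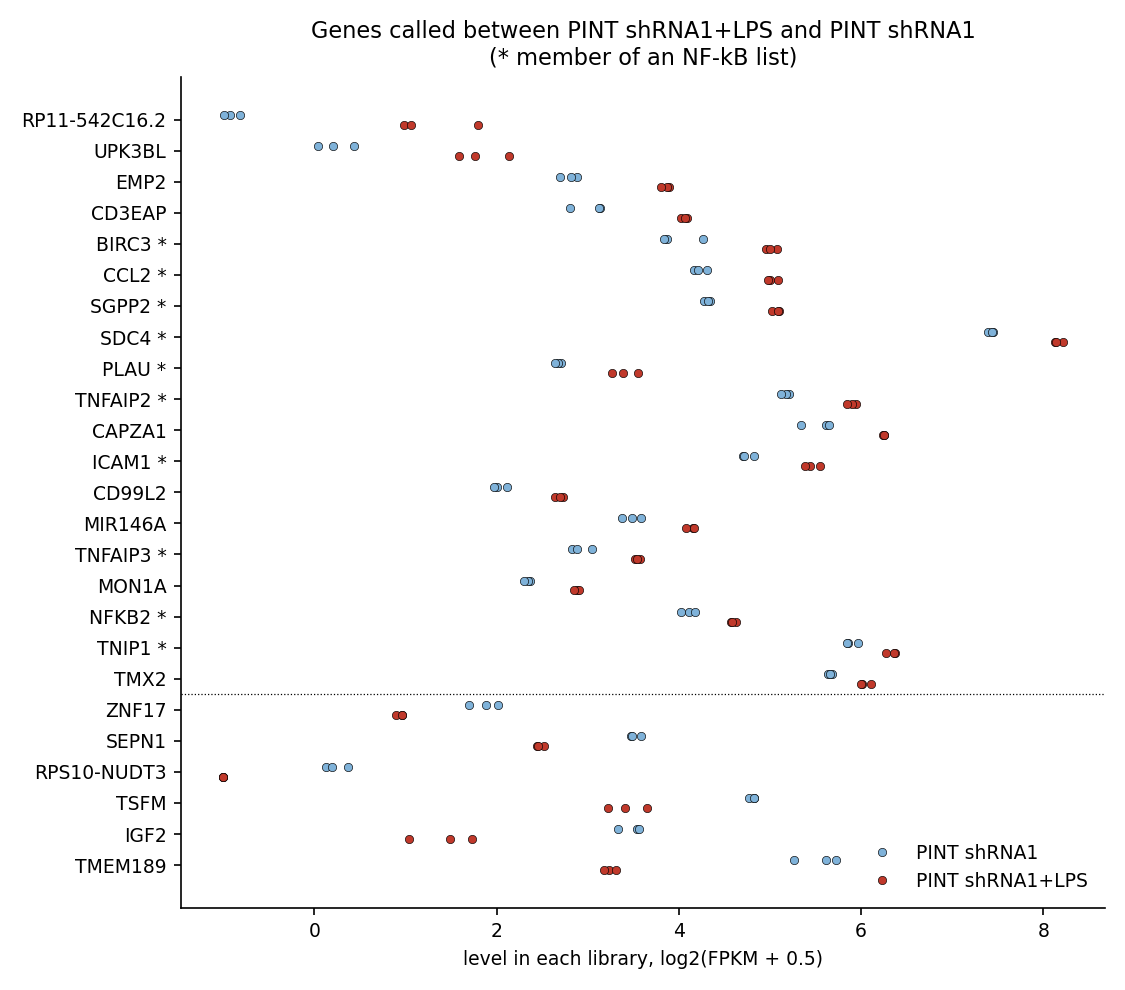
Level of 25 of the 26 called genes in every library, as log2(FPKM + 0.5): 3 points of PINT shRNA1 and 3 of PINT shRNA1+LPS per gene, sorted by log2 fold change, with the 10 members of NF-kB lists starred. The dotted line parts the 19 higher from the lower genes; the groups did not overlap in any of the genes drawn.

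Acute-phase and antimicrobial genes were not called in 11 tested. SAA2, serum amyloid A2, was at 32.7, 29.4 and 29.6 FPKM without and 33.4, 36.5 and 34.5 with LPS (0.19 ± 0.0589, limma adjusted p = 0.357). SAA1 was at 77.9, 79.0 and 84.1 FPKM without and 74.1, 79.1 and 72.2 with LPS (-0.10 ± 0.0501, limma adjusted p = 0.506). The genes are near-identical copies, so reads may have been shared between them. LCN2, an iron-scavenging antimicrobial protein, overlapped between groups, at 79.5, 87.5 and 102 FPKM without and 100.1, 96.8 and 99.5 with LPS.

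Over the 10 NF-kB lists together, 136 of 179 genes were tested, 10 were called higher (7.35%) and none lower. At an unadjusted p under 0.05 there were 46 higher and 4 lower, and the groups did not overlap upward in 50 genes and downward in 6. Of all genes tested 0.116% were called higher, and 3.9% were higher and 7.82% lower at an unadjusted p under 0.05. The groups did not overlap upward in 6.16% of all genes and downward in 13.4%. The median was 0.13, with 95 changes above 0 and 41 below, where 6184 of all 16342 genes (37.8%) were above 0. With 1 library left out the lists held 4 calls (without PINT shRNA1+LPS replicate 1 or 2), 5 (without PINT shRNA1 replicate 1 or PINT shRNA1+LPS replicate 3), 6 (without PINT shRNA1 replicate 2) or 7 (without PINT shRNA1 replicate 3), and all genes together 12 to 33. The lists were drawn up with earlier results of these data known, so these counts describe the lists and are not independent evidence.

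**Figure D2:**
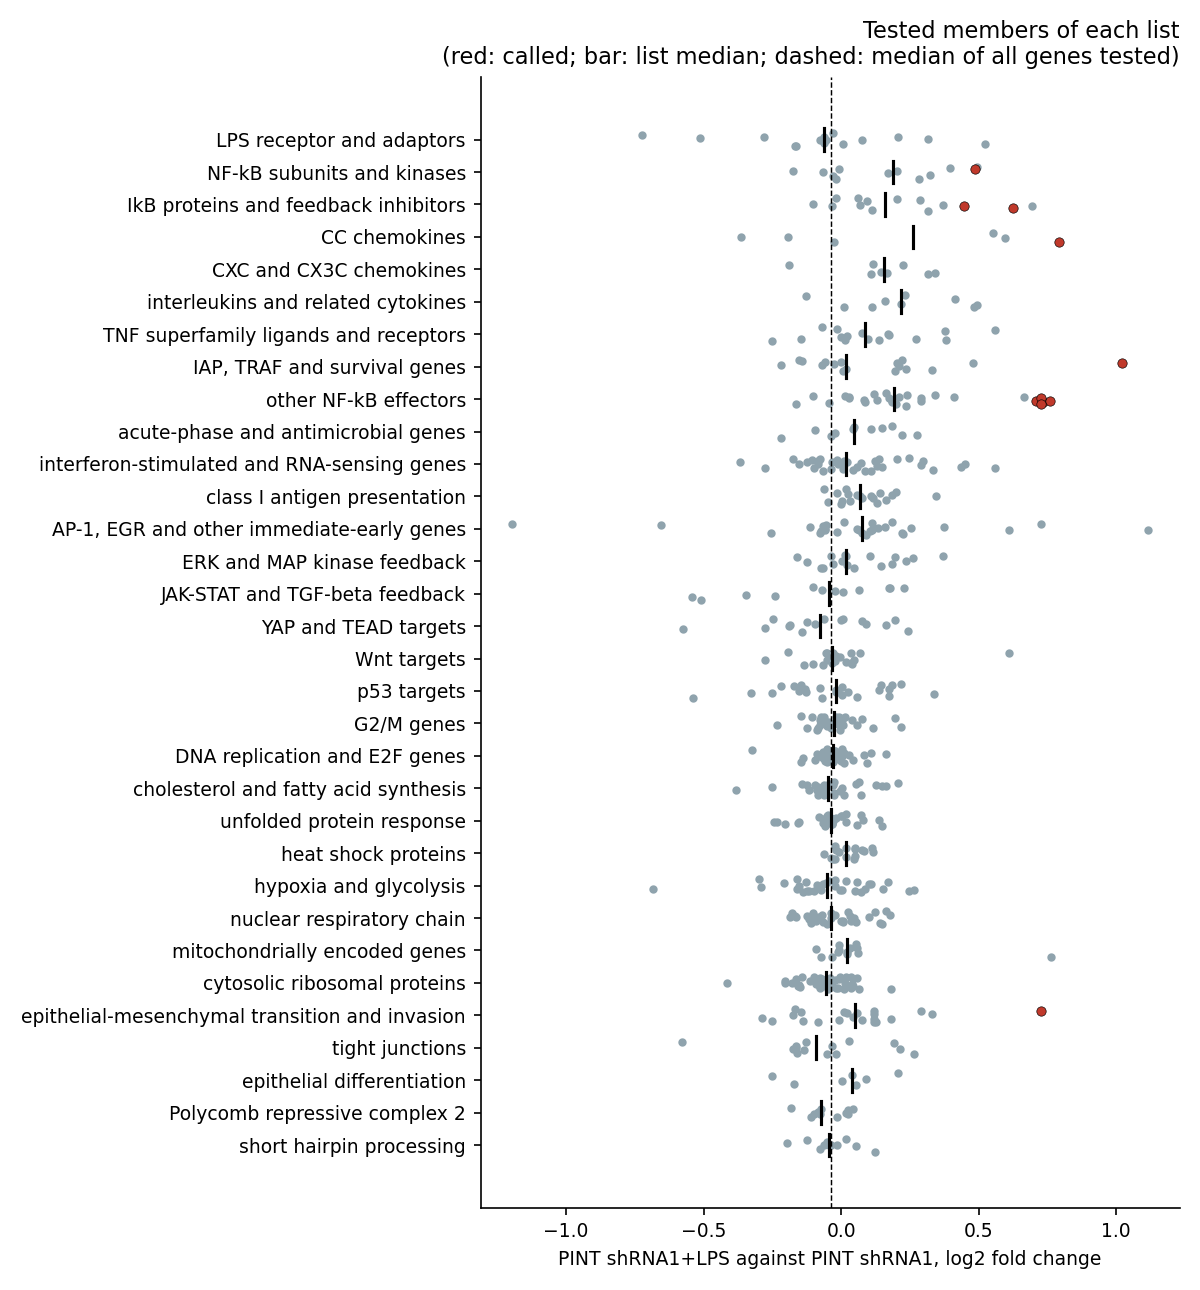
Log2 fold change of PINT shRNA1+LPS against PINT shRNA1 for each tested member of the gene lists, 1 row per list, with vertical jitter for legibility only. Red points are called genes, which sit in 5 of the 10 NF-kB lists at the top and, as PLAU again, in the list of epithelial-mesenchymal transition and invasion; bars are list medians and the dashed line is the median of all genes tested, -0.037.

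Lists of other pathways held no called member besides PLAU. At an unadjusted p under 0.05, 3.9% of all genes tested were higher and 7.82% lower. Of 36 interferon-stimulated and RNA-sensing genes 7 were higher and 2 lower at an unadjusted p under 0.05, with a median of 0.017. DDX58, the RNA sensor RIG-I, had their smallest p and went from 3.80, 3.65 and 4.02 to 5.57, 4.99 and 5.47 FPKM (0.43 ± 0.0716, limma adjusted p = 0.140). Of 29 immediate-early genes 7 were higher and 1 lower by that measure. ZFP36, an mRNA-destabilising protein, was the lowest of them, at 8.85, 3.80 and 9.32 FPKM without and 2.44, 3.11 and 2.59 with LPS (-1.20 ± 0.314, limma adjusted p = 0.322), with replicate 2 of PINT shRNA1 apart from the others. JUNB, an AP-1 subunit, went from 11.1, 11.1 and 13.3 to 14.3, 16.0 and 15.9 FPKM (0.37 ± 0.0865, limma adjusted p = 0.274). Of 18 genes of ERK and MAP kinase feedback 6 were higher at an unadjusted p under 0.05, and the ERK phosphatase DUSP5, with the smallest p, went from 25.8, 24.6 and 25.5 to 30.6, 29.6 and 29.5 FPKM (0.24 ± 0.0408, limma adjusted p = 0.165). Of 16 YAP and TEAD targets 6 were lower and 2 higher, among them the secreted factor CTGF, from 4.51, 3.69 and 3.93 to 3.33, 3.18 and 3.23 FPKM (-0.28 ± 0.0846, limma adjusted p = 0.347). The cytokine-signalling suppressor SOCS2 went from 1.71, 1.97 and 1.86 to 1.07, 1.19 and 1.19 FPKM (-0.51 ± 0.0856, limma adjusted p = 0.143). Medians of the Wnt, p53, G2/M, DNA replication, lipid synthesis, unfolded protein, respiratory chain and ribosomal protein lists lay between -0.054 and -0.019, close to the median of all genes. Members of 11 short hairpin processing genes and 11 genes of Polycomb repressive complex 2 were not called, with medians of -0.042 and -0.073.

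Among called genes above 1 FPKM in both groups the highest change was in EMP2 (ENSG00000213853), a tetraspan membrane protein of epithelia. It was at 6.87, 6.55 and 5.97 FPKM in PINT shRNA1 and 14.3, 14.1 and 13.5 in PINT shRNA1+LPS, and rose by 1.06 ± 0.0651 (limma adjusted p = 0.00396). In control cells it stood at 17.6, 17.8 and 17.9 FPKM and in LPS at 17.1, 16.8 and 17.7, above both groups labelled with the hairpin. CAPZA1, an actin-capping subunit, was at 48.7, 49.5 and 40 FPKM without and 75.6, 75.2 and 75.4 with LPS (0.71 ± 0.082, limma adjusted p = 0.0479). CD3EAP, an RNA polymerase I subunit, was at 6.48, 8.31 and 8.25 FPKM without and 16.5, 15.8 and 16.3 with LPS (1.04 ± 0.0973, limma adjusted p = 0.0287). The groups without the hairpin each held both levels of CD3EAP, at 19.1, 9.58 and 8.47 FPKM in control and 17.1, 9.99 and 19.1 in LPS. CD3EAP overlaps ERCC1 and PPP1R13L on the opposite strand, and the FPKM summed over the 3 genes differed by 0.30. CD99L2 (0.66 ± 0.0671), a membrane protein related to CD99, MON1A (0.54 ± 0.0565), of late endosome trafficking, and TMX2 (0.38 ± 0.0426), a thioredoxin-related membrane protein, were called with limma adjusted p of 0.0372, 0.0395 and 0.0443.

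Of the genes called lower, TMEM189 (ENSG00000240849), a desaturase of plasmalogen lipids, changed most. It was at 48.5, 52.2 and 37.9 FPKM in PINT shRNA1 and 8.89, 8.54 and 9.41 in PINT shRNA1+LPS, and fell by 2.29 ± 0.118 (limma adjusted p = 0.00356). With the overlapping read-through gene TMEM189-UBE2V1 added, the difference was -2.01. Without the hairpin, TMEM189 was at 11.5, 14.6 and 9.34 FPKM in control and 45.1, 12.3 and 8.74 in LPS, so 1 library of that pair was near the PINT shRNA1 level. IGF2, insulin-like growth factor 2, was at 11.2, 9.60 and 11.3 FPKM without and 2.31, 2.81 and 1.56 with LPS and fell by 2.06 ± 0.174 (limma adjusted p = 0.0180). Here too the other groups held both levels, 2.74, 16.3 and 13.3 FPKM in control and 3.67, 23.1 and 20.8 in LPS. SEPN1, a selenoprotein of the endoplasmic reticulum, was at 10.6, 10.7 and 11.5 FPKM without and 4.96, 5.22 and 4.98 with LPS, and fell by 1.04 ± 0.0579 (limma adjusted p = 0.00356). In LPS without the hairpin its libraries stood at 12.8, 12 and 5. TSFM, a mitochondrial translation elongation factor, was at 27.9, 26.7 and 27.9 FPKM without and 12.1, 8.83 and 10.1 with LPS and fell by 1.38 ± 0.106 (limma adjusted p = 0.0122). ZNF17, a zinc finger gene, fell by 0.93 ± 0.1 (limma adjusted p = 0.0431).

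For 3 called genes the FPKM summed over genes of the same locus hardly moved. UPK3BL was at 0.858, 0.533 and 0.655 FPKM without and 3.90, 2.90 and 2.51 with LPS (1.60 ± 0.170, limma adjusted p = 0.0415), while its sum with POLR2J2 and RP11-514P8.6 differed by 0.0062. RP11-542C16.2, under 0.1 FPKM in each library without LPS and at 1.47, 1.59 and 2.97 with it (2.19 ± 0.222, limma adjusted p = 0.0372), overlaps GPS2 and NEURL4, and the sum differed by -0.079. RPS10-NUDT3, a read-through gene listed at 0 in PINT shRNA1+LPS, is named although its mean was under 1 FPKM, a choice made after its values were seen, and its sum with RPS10, NUDT3 and RP11-513I15.6 differed by -0.044. RP11-542C16.2 and RPS10-NUDT3 reached 0.5 FPKM only in the group where they are high, so passing the low-value filter required a difference, and their calls support nothing; 24 of the 26 calls are other genes. Partners of RP11-542C16.2 and RPS10-NUDT3 were far more abundant, with GPS2 at a mean of 25.0 FPKM and RPS10 at 333 in PINT shRNA1. The sums for RP11-542C16.2 and RPS10-NUDT3 could therefore hardly move whatever the called gene did, and they say nothing on either call. In PINT shRNA1 the mean of UPK3BL was 0.682 FPKM and that of its partner POLR2J2 14.4. The UPK3BL sum could therefore move only a little, and it says little on that call. How fragments were shared between overlapping genes was set by the authors' quantification, and its part in these calls was not tested.

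A fit of all 12 libraries, which takes the spread of a gene from all 4 groups, called 33 genes, 29 higher and 4 lower, and shared 15 with the 26. The NF-kB lists then held 13 calls in place of 10. TNFAIP2 was no longer called (limma adjusted p = 0.291), and LTB (0.00617), CXCL1 (0.0288), NFKB1 (0.0288) and CCL7 (0.0332) were added. TMEM189, IGF2, SEPN1, ZNF17, RPS10-NUDT3, CAPZA1, CD3EAP, CD99L2, MON1A and TMX2 were not called in that fit, with limma adjusted p from 0.104 to 0.479. The SE of CAPZA1 went from 0.082 to 0.26 and that of IGF2 from 0.174 to 0.688. CAPZA1 had 2 levels in the groups without the hairpin, at 70.0, 36.1 and 72.6 FPKM in control and 43.0, 74.3 and 44.2 in LPS.

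**Figure D3:**
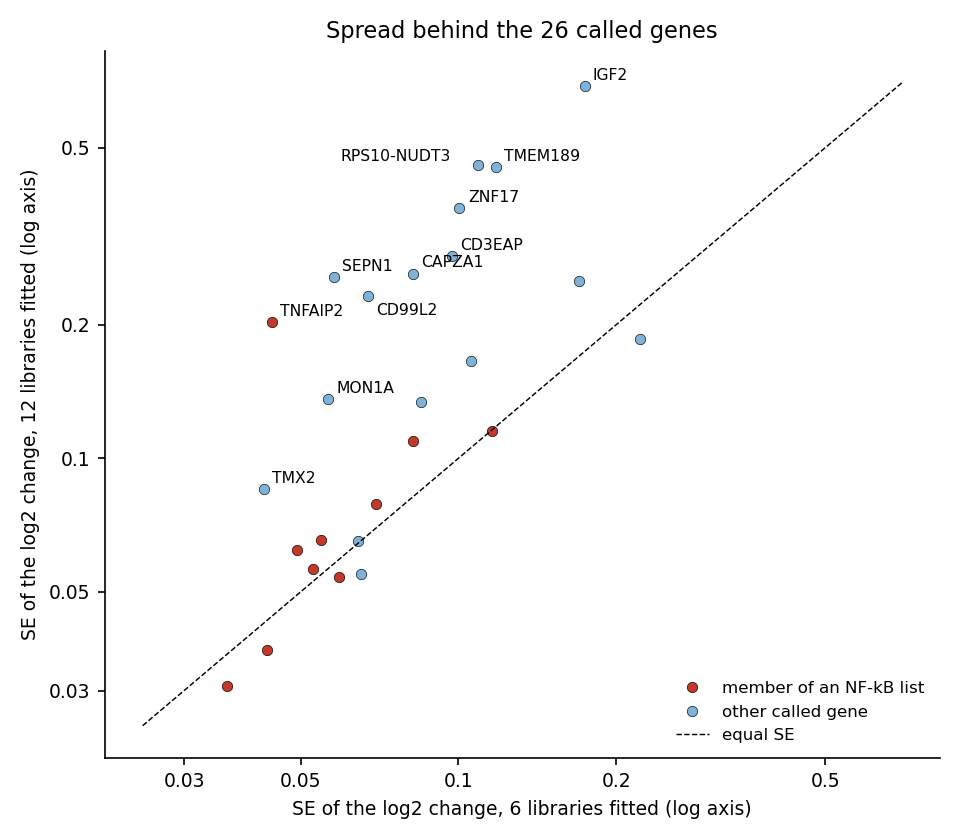
Standard error of the log2 fold change of each of the 26 called genes when 6 libraries (x) or all 12 libraries (y) were fitted, both on log axes, with equality dashed. Most NF-kB list members lie near the line, with TNFAIP2 farthest above it, while IGF2, TMEM189, SEPN1 and CAPZA1 are among those whose SE was larger with 12 libraries.

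The response was then set beside that of cells without a hairpin, whose libraries it does not share. LPS against control called 129 of 15997 genes (0.806%), 108 higher (0.675%) and 21 lower (0.131%). Of those 108, 105 were tested with the hairpin label, and 98 of them (93.3%) changed upward, 87 without overlap between the groups and 11 called. Among all genes tested with the hairpin label 37.8% changed upward, 6.16% did so without overlap and 0.116% were called higher. The median of the 105 was 0.28 with the hairpin and 0.72 without it, and 104 of them had the smaller absolute change with the hairpin. Compared with sign, 7811 of all 15529 genes tested in both had the lower value with the hairpin. That count is another measure and no background for the 104. Genes chosen for a call in one comparison lean to larger values in it, which bears on this contrast of medians. Of the 21 genes called lower 20 were tested, and 18 (90.0%) were lower with the hairpin, beside 10158 of all 16342 genes tested. None of the 20 was called, and the medians were -0.21 with and -0.59 without the hairpin. The 11 genes called in both, 42.3% of the 26 and 8.53% of the 129, all changed in the same direction: the 10 NF-kB genes and MIR146A. TNFAIP3 had the nearest sizes among them, 0.62 with and 0.84 without the hairpin, and TNFAIP2 the farthest, 0.73 and 2.24. The LPS libraries of TNFAIP2 were spread, at 135, 73.3 and 138 FPKM, so its 2.24 is imprecise (SE 0.254). Over all 15529 genes Pearson's r of the 2 log2 changes was 0.19, given as a description.

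The difference of the 2 responses was tested as an interaction over all 12 libraries, and 22 of 17214 genes (0.128%) were called, 16 smaller with the hairpin (0.0929%) and 6 larger (0.0349%). At an unadjusted p under 0.05 it was 1333 genes (7.74%), with 719 smaller (4.18%). The NF-kB lists held 9 of the 16 and none of the 6. CCL7 had the largest of these, since LPS libraries without the hairpin were at 14.9, 15.8 and 13.2 FPKM from 3.80, 3.54 and 3.59 in control (difference of log2 responses -1.27 ± 0.130, limma adjusted p = 0.00265). For CCL20 it was -1.15 ± 0.167 (0.0283; called in 12 of 23 alternative analyses), with 33.7, 39.2 and 38.5 FPKM in LPS from 13.6, 9.94 and 10.0 in control. CCL2 reached 60.6, 62.2 and 59.6 FPKM in LPS from 19.8, 17.0 and 16.7 in control, a start close to that of PINT shRNA1 (-0.96 ± 0.0926, limma adjusted p = 0.00227). All 3 chemokines thus ended lower in PINT shRNA1+LPS than in any LPS library.

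SDC4 reached 566, 570 and 559 FPKM in LPS (difference -0.84 ± 0.0435, limma adjusted p = 9.34e-06). ICAM1 reached 99.6, 99.0 and 103 FPKM (-0.77 ± 0.0767, limma adjusted p = 0.00245), and SGPP2 54.3, 54.4 and 54.3 (-0.75 ± 0.0527, limma adjusted p = 0.000117). SGPP2 started at 18.7, 18.8 and 18.7 FPKM in control, and so from nearly the level of PINT shRNA1. LTB differed by -0.74 ± 0.0947 (limma adjusted p = 0.0103), CXCL1 by -0.68 ± 0.0726 (0.00319) and SAA2 by -0.63 ± 0.0686 (0.00364). MIR146A, outside the lists, differed by -0.63 ± 0.0925 (limma adjusted p = 0.0283). For NFKBIA the 2 responses were 0.10 and 1.21 and the difference, -1.12 ± 0.272, was not called (limma adjusted p = 0.268), nor was that of TNFAIP2 (-1.51 ± 0.286, 0.124) or BIRC3 (-0.33 ± 0.163, 0.674). Over the 134 NF-kB list genes tested in both, the median response was 0.14 with and 0.29 without the hairpin, and 106 had the smaller value with it. By the same measure 7811 of all 15529 genes tested in both had the smaller value with the hairpin, and both medians were -0.036.

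**Figure D4:**
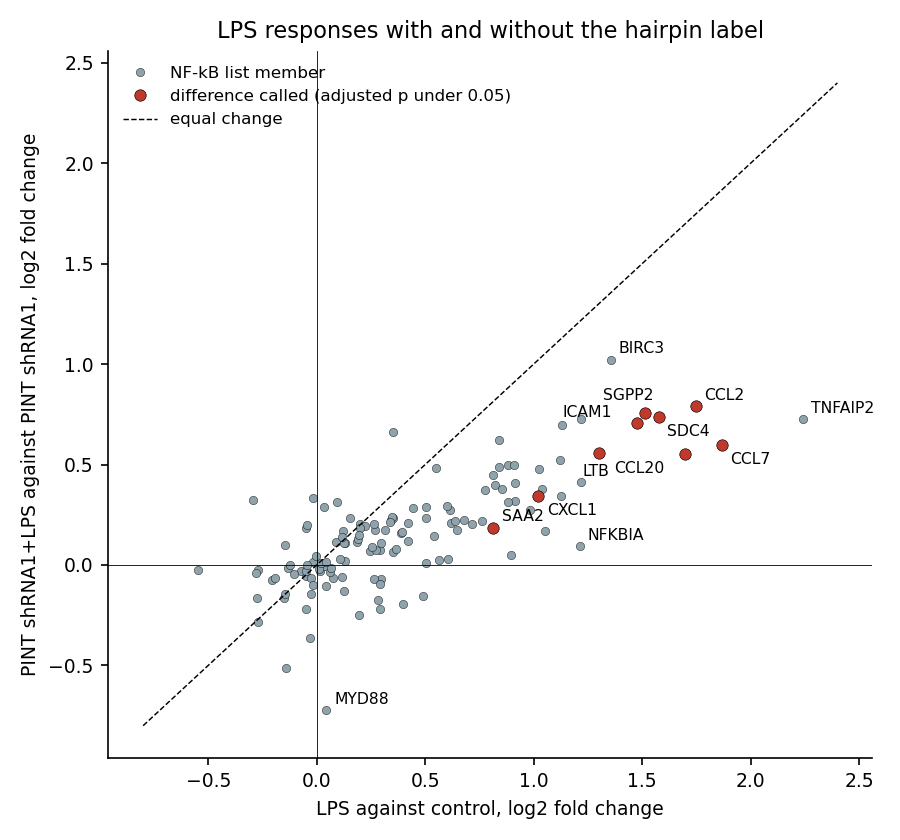
Log2 fold change after LPS without (x) and with the hairpin label (y) for the 134 members of NF-kB lists tested in both, with the line of equal change dashed. The 9 members in red, whose difference was called, all lie below the line. The smaller value is with the hairpin in 106 of the 134, beside 7811 of all 15529 genes tested in both.

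Genes outside the NF-kB lists also had a called difference of responses. IGFL1, an insulin growth factor-like gene, was at 1.63, 1.09 and 1.33 FPKM in PINT shRNA1 and 1.14, 1.18 and 1.31 in PINT shRNA1+LPS, beside 2.16, 2.57 and 2.09 in control and 5.95, 5.89 and 7.37 in LPS (difference -1.42 ± 0.179, limma adjusted p = 0.0101). YTHDF2, a protein that reads methylated adenosine in mRNA, was at 38.1, 36.5 and 35.8 FPKM without and 37.1, 37.1 and 38.0 with LPS under the hairpin label. In control it was at 27.8, 28.9 and 27.6 and in LPS at 7.19, 6.96 and 8.61, so the difference of the responses was 1.85 ± 0.0958 (limma adjusted p = 9.34e-06). EGR1, an immediate-early transcription factor, differed by 0.43 ± 0.0595 (limma adjusted p = 0.0178; called in 13 of 23 alternative analyses), with 18.3, 19.0 and 19.0 FPKM in PINT shRNA1 and 17.8, 17.9 and 17.6 with LPS added. Without the hairpin it fell from 26.6, 26.6 and 25.9 FPKM in control to 19.2, 18.2 and 17.7 in LPS (-0.51, limma adjusted p = 0.0106), so the positive difference is no rise under the hairpin label. EMP2 differed in the opposite sense to the chemokines, by 1.10 ± 0.078 (limma adjusted p = 0.000117).

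**Figure D5:**
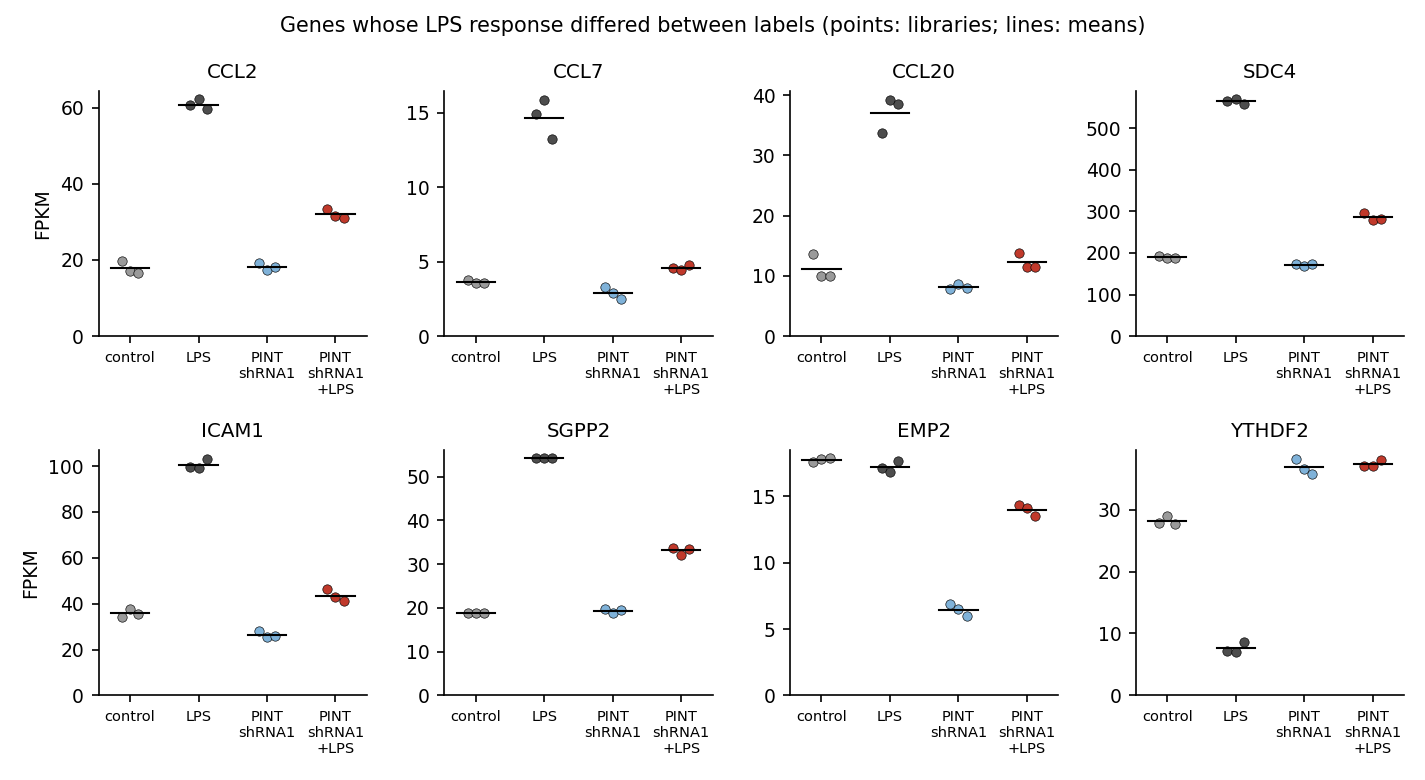
FPKM of 8 genes with a called difference of the LPS responses in the 4 groups, each point a library, each line a group mean of 3 libraries, axes from 0. CCL2, CCL7, CCL20, SDC4, ICAM1 and SGPP2 are highest in LPS, EMP2 is lowest in PINT shRNA1, and YTHDF2 is low in LPS alone.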

How the data were processed

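Per the labels' protocols, RNA was extracted with Trizol and sequenced on an Illumina HiSeq instrument. The values are FPKM per Ensembl gene as deposited by the authors. GRCh37/hg19 and the tools StringTie 1.3.4d, HISAT2 2.1.0 and fastp are listed, without roles, in the submitters' processing notes. Values in 6 further columns were left out, as their samples are not analysed here. FPKM hides absolute depth, so precision is given as the SE of the fit.

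Values were analysed as log2(FPKM + 0.5) for genes that reached 0.5 FPKM in 3 or more of the fitted libraries, with limma 3.58.1 in R 4.3.3 (intensity trend, two-sided, Benjamini-Hochberg adjustment over all genes). PINT shRNA1+LPS against PINT shRNA1 and LPS against control were fitted on 6 libraries each, and their difference on 12. The pipeline was tested on simulated data. Named were up to 20 highest and 12 lowest called genes of at least 1 FPKM, 8 interaction calls in each direction, LINC-PINT, MKLN1, EZH2, RELA, TLR4, members of the NF-kB lists, and up to 4 leading members of each other list; clone-based names were left out of the first group, and overlapping partner genes were named after their values were seen. Some genes under this rule are not reported here. Of repeated symbols the most abundant entry was used. Members and gene lists were chosen with earlier results of these data known. Overlaps of genes came from GENCODE 29, of another build, without coordinates. Relative depth came from the commonest ratio of low values between libraries.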

Additional observations from a re-analysis of the deposited data

Results flagged for a closer look

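The LPS response differed with the hairpin label, by the interaction over 12 libraries (limma), in 13 genes that follow. Differences of log2 fold changes below 0 are smaller responses with the hairpin. The chemokines CCL7 (-1.27), CCL20 (-1.15) and CCL2 (-0.96), the secreted factor IGFL1 (-1.42), SDC4 (-0.84), ICAM1 (-0.77), SGPP2 (-0.75) and LTB (-0.74) had smaller values with the hairpin. Above 0 were UPK3BL (2.24), RP11-542C16.2 (2.20), YTHDF2 (1.85), EMP2 (1.10) and EGR1 (0.43). UPK3BL and RP11-542C16.2 overlap other genes, and the FPKM summed over each gene together with its partners hardly moved. For both genes a partner is far more abundant, so the sum could move only a little for UPK3BL and hardly for RP11-542C16.2. RP11-542C16.2 also entered the fit only through the 3 PINT shRNA1+LPS libraries where it is high, so its call supports nothing. Of 23 alternative analyses the difference was called in 8 for UPK3BL, 12 for CCL20, 13 for EGR1 and 22 for IGFL1, and in all 23 for the others. TLR4, the LPS receptor, was also at 2.51, 2.07 and 2.42 FPKM in PINT shRNA1 and at 5.43, 6.32 and 5.81 in control, and its part in the differences was not tested.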

How the results depend on the processing

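The 26 calls became 7 without a filter on low values, 10 at a log2 change of at least 1, and 12 to 33 with 1 library left out (12 without PINT shRNA1 replicate 1, 14 without PINT shRNA1+LPS replicate 1). The 10 NF-kB calls became 6 on a common total, 6 without an intensity trend, 4 without a filter, and 4 to 7 with 1 library left out. With the replicate number as a block no gene and no NF-kB member was called (0), with 1637 genes at an unadjusted p under 0.05, the interaction gave 14 calls and LPS against control 17. Deviations from the group mean had r of 0.026, 0.065 and -0.020 for same-numbered libraries and -0.070 to 0.046 for the others. Values this near 0 cannot tell whether the numbers pair libraries. The labels do not state a pairing, so the main fit has no block. LPS against control gave 486 calls with 12 libraries and 47 to 74 with 1 library left out; the block and these omissions were chosen after the data were seen. Interaction counts otherwise ran from 17 to 27. Higher genes were 19 of the 26, and their share was 60.0% without a trend, 87.9% with 12 libraries and 33.3% to 66.7% with 1 library left out, lowest without PINT shRNA1+LPS replicate 2 (6 higher, 12 lower).

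SDC4, SGPP2, CCL2 and EMP2 were called in 16 of 17 alternatives, all but the block, ICAM1 in 12, and BIRC3, NFKB2 and PLAU in 7. With 1 library left out the uncalled change of RELA ran from -0.35 to 0.092, of NFKBIA from -0.051 to 0.28, of MKLN1 from -0.019 to 0.10 and of IGFL1 from -0.21 to 0.00083; the cause was not tested. LINC-PINT stayed uncalled in every alternative.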
